A study of Mus musculus with 12 samples.

Results

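The Pax genes, Pax1 to Pax9, were followed through a DNA methylation data set of mouse kidney cells exposed to a methylation inhibitor. The 9 members were taken by name from the GENCODE M1 annotation of the mm9 genome, which holds 22367 protein-coding genes, and each was read from 5000 bases upstream of its start to its end. These intervals held 4451 of the 8085547 CpGs listed in at least 1 of the 10 libraries used. Methylation had been measured by reduced representation bisulfite sequencing (RRBS), in which the enzyme MspI cuts at CCGG, short fragments are kept and bisulfite turns unmethylated cytosines into bases read as T. A methylation level is the percentage of reads at a CpG, or over the CpGs of a window, that kept the C.

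All cells were proximal renal tubule epithelial cells heterozygous for Pkd1 at passage 3, derived from Pkd1 flox/-:TSLargeT mice, which carry a large T antigen transgene. They were exposed for 24 h to PBS, to 50 µM Aza (5-aza-2′-deoxycytidine, an inhibitor of DNA methyltransferases), to that dose of Aza plus 10 µM tolvaptan and 300 µM metformin, all dissolved freely (F-MTAza), or to these 3 drugs at the same concentrations in micelles (NP-MTAza). Each group had 3 libraries, and the labels do not say that they came from separate animals, so p-values measure the spread between these libraries. Aza replicates 1 and 2 stood apart: across the Pax CpGs their levels gave Spearman correlations of -0.09 to 0.03 with any other library, against 0.69 to 0.85 between the other 10. Leaving both out was set beforehand, with the choice of this gene family, and not from these correlations. Aza is therefore represented by replicate 3 alone, without a replicate check.

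Pax proteins bind DNA through a paired domain and direct the formation of organs in the embryo. Pax2 and Pax8 act in the nephric lineage, where together they are needed for the nephric duct to form, and Pax8 also in the thyroid. With Pax5, which commits cells to the B lineage, they make up a subfamily. The others are Pax1 and Pax9 (vertebral column, thymus and teeth), Pax3 and Pax7 (neural crest and skeletal muscle), and Pax4 and Pax6 (endocrine pancreas, and for Pax6 also the eye and brain). CpG-dense gene starts are usually unmethylated and gene bodies usually methylated, and genes of developmental regulators often carry long unmethylated regions.

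The sequences that follow show what was read. They are the 200 bases near the gene start with the most measured CpGs outside exons of coding transcripts, for the 2 renal genes and 3 others, and the border in Pax2 described further on. All are mm9 sequence, 5′ to 3′ on the strand of the gene, and capitals mark CpGs with at least 5 reads in at least 2 of the 3 PBS libraries. They lie at chr19:44830151-44830350 (Pax2, plus strand, upstream of the gene start), chr2:24329713-24329912 (Pax8, minus strand, intron), chr4:139388509-139388708 (Pax7, minus strand, intron), chr2:147187425-147187624 (Pax1, plus strand, upstream of the start), chr12:57793443-57793642 (Pax9, plus strand, intron) and chr19:44835535-44835734 (Pax2 border, plus strand, intron).
Pax2 start: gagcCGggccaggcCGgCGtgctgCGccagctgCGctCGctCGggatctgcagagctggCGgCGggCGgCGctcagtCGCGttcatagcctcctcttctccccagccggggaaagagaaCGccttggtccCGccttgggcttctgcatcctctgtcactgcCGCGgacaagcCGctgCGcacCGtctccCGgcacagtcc
Pax8 start: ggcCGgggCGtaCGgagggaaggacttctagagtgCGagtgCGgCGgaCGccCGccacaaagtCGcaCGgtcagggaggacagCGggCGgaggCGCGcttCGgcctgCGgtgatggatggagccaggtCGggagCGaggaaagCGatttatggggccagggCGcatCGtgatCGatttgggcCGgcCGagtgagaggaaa
Pax7 start: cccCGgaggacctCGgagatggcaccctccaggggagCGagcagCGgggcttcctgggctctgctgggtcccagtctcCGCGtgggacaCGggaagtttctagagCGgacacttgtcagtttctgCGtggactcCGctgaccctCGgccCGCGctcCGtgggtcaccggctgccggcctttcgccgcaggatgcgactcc
Pax1 start: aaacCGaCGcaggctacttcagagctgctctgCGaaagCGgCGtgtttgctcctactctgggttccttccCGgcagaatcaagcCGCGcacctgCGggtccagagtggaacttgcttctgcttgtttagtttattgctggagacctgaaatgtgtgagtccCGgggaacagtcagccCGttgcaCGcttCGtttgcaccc
Pax9 start: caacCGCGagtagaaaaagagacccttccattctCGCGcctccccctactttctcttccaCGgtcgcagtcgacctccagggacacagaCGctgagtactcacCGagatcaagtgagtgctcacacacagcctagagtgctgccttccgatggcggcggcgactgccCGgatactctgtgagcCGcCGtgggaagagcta
Pax2 border: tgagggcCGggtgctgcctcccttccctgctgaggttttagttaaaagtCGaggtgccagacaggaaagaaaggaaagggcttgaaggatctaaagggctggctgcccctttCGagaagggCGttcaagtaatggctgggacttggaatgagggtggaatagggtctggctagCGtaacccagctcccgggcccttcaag
Over the capitals, pooled PBS reads gave 0.696% of 575 reads methylated for the Pax2 start and 1.34% of 1490 for Pax8. The same measure was 40.9% of 788 reads for Pax7, 58.0% of 683 for Pax1 and 81.6% of 196 for Pax9. CpG-rich sequence of all 5 genes was thus read, and among the sequences shown only those of the 2 renal genes were nearly free of methylation. The Pax7 sequence lies 737 to 936 bases after the start. From 565 bases before to 459 after the start, Pax7 had runs of CpGs under 20% at 3.73%, 8.01% and 9.60% in pooled PBS. A CpG between them, at 80 bases, stood at 42.5%.

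The first question was which Pax gene starts were unmethylated in untreated cells. Levels are given over shared CpGs, those with at least 5 reads in at least 2 of 3 libraries of each of PBS, F-MTAza and NP-MTAza. Within 1000 bases of the start, Pax2 stood at 0.757%, 3.03% and 0.471% in PBS replicates 1, 2 and 3 (68 CpGs, mean 1.42% ± 1.40, SD, n = 3). Pax8 stood at 0%, 2.83% and 0.525% (15 CpGs, 1.12% ± 1.51). Replicate 2 was the highest of the PBS libraries in both genes. The 0 of 291 reads of Pax8 in PBS replicate 1 allows a level of up to 1.03%, taking 3 counts of the total as the limit. Reads of a window were counted at each CpG, so a read over several CpGs counts several times. Limits and intervals here treat these counts as independent and so can be too narrow. They cover counting error only, since PCR copies were not told apart from molecules. A level also averages over cells, so that partial loss in all cells and full loss in some cannot be told apart.

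Pax7 came next, with 6.22%, 16.6% and 10.8% in PBS over 16 shared CpGs. That value depended on which CpGs counted: over the 46 CpGs measured in PBS alone it was 24.0% to 30.8%, while Pax2 and Pax8 stayed at or below 3.00% over the same kind of set. Pax1 (56.5% ± 4.51, 25 CpGs), Pax6 (58.2% ± 11.8, 13 CpGs), Pax5 (59.1% ± 28.5, 10 CpGs), Pax9 (76.2% ± 7.58, 21 CpGs) and Pax3 (79.9% ± 9.25, 7 CpGs) were methylated. Every PBS library lay above 35% in these 5 genes, whose own ranges overlapped from Pax1 to Pax3, and Pax5 alone ran from 35.2% in PBS replicate 3 to 90.6% in replicate 2. Pax4 had no shared CpG there. In the mm9 sequence Pax4 has 11 CpGs within 1000 bases of its start, Pax8 has 40, Pax9 86, Pax3 87 and Pax2 128, with a median of 61 over all genes, so the number of CpGs did not order the levels.

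**Figure D1:**
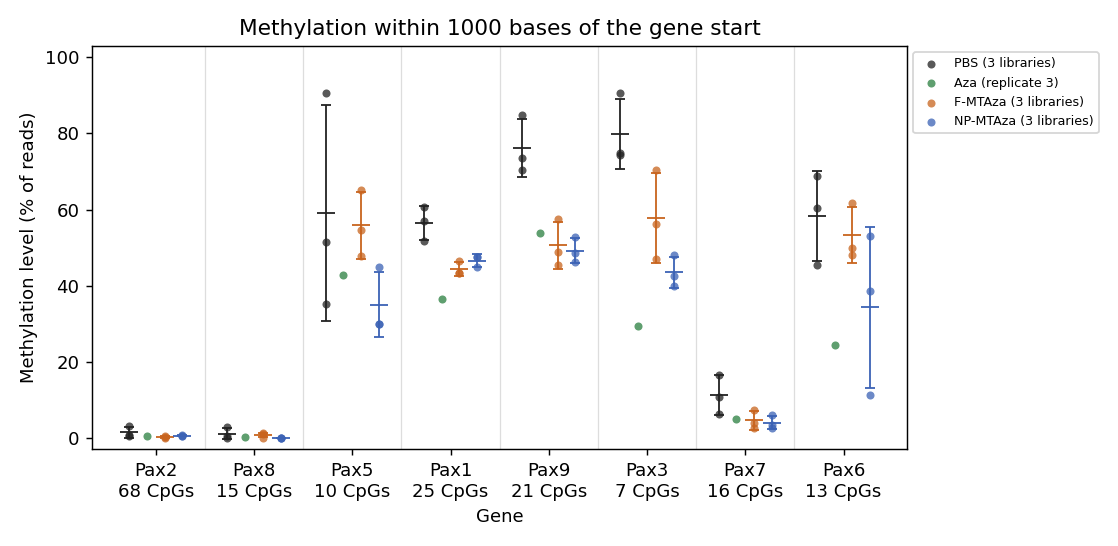
Methylation level (% of reads) within 1000 bases of the gene start for 8 Pax genes. Each point is a library, and for groups of 3 the wide mark is the mean and the bars are 1 SD. Pax2 and Pax8 lie below 4% in all 10 libraries, while the group means of Pax1, Pax3, Pax5, Pax6 and Pax9 lie between 34.3% and 79.9% in PBS, F-MTAza and NP-MTAza.

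Later annotated starts were read within 500 bases. The 3 clusters of Pax2 coding transcript starts, at 0, 1337 and 3869 bases, had PBS levels of 0.835% ± 0.462, 1.63% ± 2.40 and 1.90% ± 1.38 (n = 3), so each was unmethylated. The Pax1 start 3069 bases in was at 89.2% ± 2.66, against 53.1% ± 2.89 at its first. Of 8 clusters of Pax6 starts, 6 had measured CpGs, with PBS means from 57.4% to 90.6%. The Pax9 start 3872 bases in was at 21.4% and 30.3% in PBS replicates 1 and 3 over 5 CpGs, against 79.8% ± 8.57 at its first.

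The unmethylated region of Pax2 was among the longest measured at gene starts. Such a stretch was taken from the CpG under 20% nearest to the gene start, within 1000 bases of it, and extended in pooled PBS until 2 CpGs in a row reached 50% or no CpG was measured for 2000 bases. In Pax2 it ran from 1198 bases before to 5045 bases after the start (chr19:44829341-44835584). It spanned 6244 bases with 187 CpGs, of which 183 were under 20%. Of 9322 genes with a stretch of 10 or more CpGs, 18, Pax2 included, had one at least this long, and the median was 962 bases. A gap in measured CpGs or the end of the interval read also ended a stretch. Lengths in other genes can thus be cut short, and the rank holds for measured lengths only. Upstream the Pax2 stretch ended in a gap without measured CpGs, so its true end there is unknown.

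Pax8 had the next longest, from 51 to 3284 bases after the start (chr2:24327835-24331068), with 85 CpGs over 3234 bases, all under 20%. A stretch at least this long was found in 243 genes. Neither end was a methylated CpG, as the next measured CpG downstream lay 6609 bases from the start and none upstream had reads in 2 PBS libraries. In PBS replicate 3 alone, unmethylated CpGs were read back to 274 bases before the start and a methylated border 517 bases before it. Because PBS reads set these stretches, their PBS levels are a description.

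Pax7 had a broken stretch of 2519 bases, from 565 bases before to 1953 after the start, in which 45 of 67 CpGs were under 20% and the pooled level was 24.9%. It shrank to 640 bases with limits of 10% and 30%, and single PBS libraries gave 468 to 2283 bases, so its length was not stable. The remaining genes had little of this kind. Pax5 had a stretch of 5 CpGs, Pax1 of 2 and Pax6 of 1, and Pax3, Pax4 and Pax9 had none in pooled PBS.

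**Figure D2:**
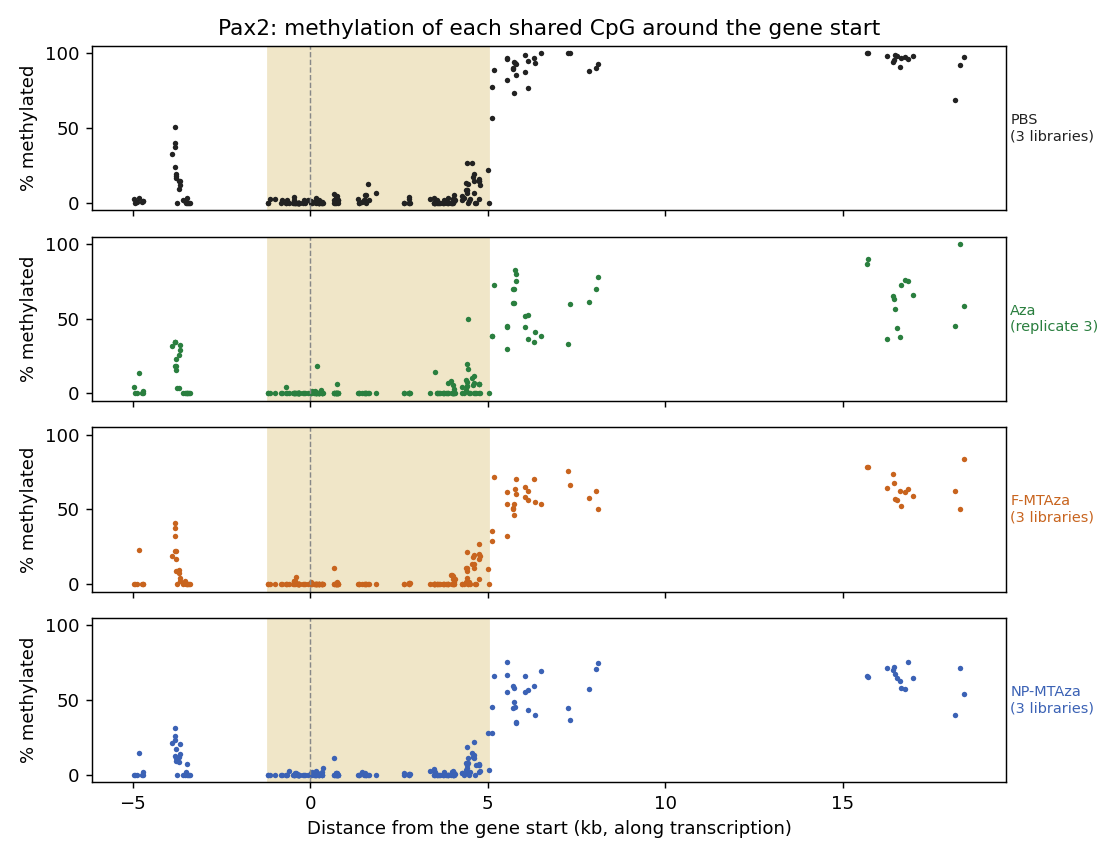
Methylation level (%) of each shared CpG of Pax2 against distance from the gene start in kb, with 1 row each for PBS, Aza replicate 3, F-MTAza and NP-MTAza and reads pooled within a group. The shaded stretch of 6244 bases stays mostly near 0 in every row, and CpGs downstream of it, near 94.0% in PBS, sit lower in the treated rows.

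The next question was whether treatment changed these stretches. Over 149 shared CpGs, the Pax2 stretch was at 2.44%, 5.48% and 1.94% in PBS and at 1.28%, 1.79% and 1.85% in F-MTAza. It was at 1.73%, 1.77% and 1.50% in NP-MTAza and 1.10% in Aza replicate 3 (Wilson 95% interval 0.829% to 1.46%). All 7 treated libraries lay below the 3 PBS libraries, with differences from the PBS mean of -1.65, -1.62 and -2.19 points in F-MTAza, NP-MTAza and Aza replicate 3. The gap was narrow, from 1.94% in PBS replicate 3 to 1.85% in F-MTAza replicate 3. For fixed promoter windows of all genes, 4117 and 4526 of 9782 were lower without overlap in F-MTAza and NP-MTAza, each taken alone. Those promoters had a median PBS level of 14.4%, so they are not a like share for this stretch. In the promoter window used for testing, from 2000 bases before to 500 after the start, Pax2 had 0.93% ± 0.623 in PBS, 0.183% ± 0.264 in F-MTAza and 0.48% ± 0.202 in NP-MTAza. These differences did not pass the test (limma on arcsine square root levels over all genes, Benjamini-Hochberg adjusted p = 0.253 and 0.627). Passing also needed a fall of at least 10 points, which this promoter, at 0.93% in PBS, could not show.

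The Pax8 stretch, over 67 shared CpGs, was at 0.336%, 3.15% and 0.525% in PBS, at 0.567%, 0.440% and 1.34% in F-MTAza and at 0.468%, 0.787% and 0.312% in NP-MTAza. Aza replicate 3 had 0.635% (0.322% to 1.25%). The groups overlapped, and each treated library lay below PBS replicate 2. The Pax7 stretch, over 29 shared CpGs, was lower without overlap in the treated groups, at 12.3%, 16.1% and 18.6% in PBS, 5.67%, 9.30% and 8.04% in F-MTAza and 6.93%, 5.59% and 5.90% in NP-MTAza. No test was run on the stretches, and how often stretches of all genes separated without overlap was not counted.

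The downstream border of Pax2 was a step between neighbouring CpGs of an intron, just past the coding exon that ends 4994 bases after the start. In the border sequence printed above, the CpG at 5045 bases was methylated in 0% of 28 pooled PBS reads, which allows up to 10.7%, and the next, at 5108 bases, in 56.8% of 37 (Wilson 95% interval 40.9% to 71.3%). Further CpGs stood at 77.8% at 5117 bases and 88.6% at 5169 bases. In F-MTAza these 4 CpGs read 0%, 29.0%, 35.5% and 71.9%, and in NP-MTAza 3.45%, 27.9%, 45.5% and 65.9%. The level in each pooled group rose between the CpGs at 5045 and 5108 bases, and those from 5108 to 5169 were lower after treatment. The border was not redrawn in the treated groups, where the CpGs at 5108 and 5117 bases lay below the 50% that sets it. Those CpGs were chosen by their PBS level, so their fall is a description. PBS replicate 2 alone put the border at 5532 bases. The step was not a fall from a flat floor, since in PBS the CpGs of the last 700 bases of the stretch already ranged from 0% to 26.8%.

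**Figure D3:**
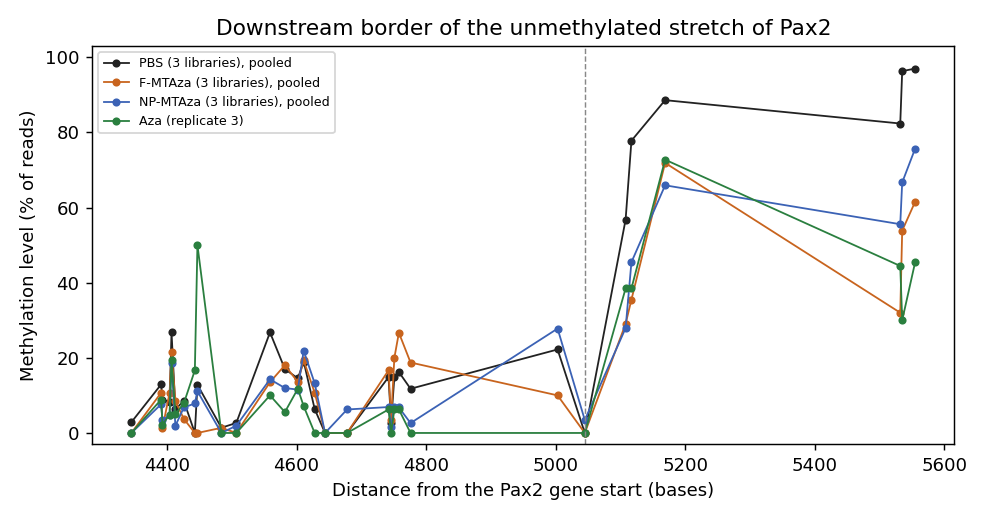
Methylation level (% of reads) of 31 shared CpGs around the downstream border of the Pax2 stretch, against distance from the gene start in bases. Reads are pooled within PBS, F-MTAza and NP-MTAza, Aza replicate 3 is a single library, and the dashed line marks the last CpG of the stretch at 5045 bases. To the right of the line PBS climbs to 88.6% at 5169 bases, against 71.9% in F-MTAza and 65.9% in NP-MTAza.

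The 2000 bases beyond a border, without the 2 CpGs that set it, were tested as a shore. Over 18 CpGs the Pax2 shore had 87.8%, 90.8% and 90.7% in PBS, 56.5%, 58.9% and 56.4% in F-MTAza and 52.5%, 57.7% and 53.0% in NP-MTAza. Aza replicate 3 was at 55.0% (50.1% to 59.8%), and no treated library came within 28 points of the PBS libraries. The level fell by 32.5 points in F-MTAza and by 35.4 points in NP-MTAza (limma with Benjamini-Hochberg adjustment, adjusted p = 6.05e-05 and 4.50e-05). Falls of this kind were the rule: 85.1%, 88.5% and 73.5% of 4221 shores were called lower (adjusted p under 0.05 and at least 10 points) in F-MTAza, NP-MTAza and Aza replicate 3. Of the 4 Pax shores tested, 3, 4 and 4 were called. Those of Pax1, Pax5 and Pax6 lie beside stretches of 1 to 5 CpGs, and the Pax6 shore holds the same 35 CpGs as its promoter. The Pax1 call in NP-MTAza was lost when any 1 PBS or NP-MTAza library was left out, with adjusted p from 0.0513 to 0.0986 by limma.

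Upstream of Pax2, methylation was low as well. The flank from 5000 to more than 2000 bases before the start had 14.0%, 7.42% and 11.6% in PBS, 9.64%, 11.5% and 10.0% in F-MTAza and 11.9%, 6.63% and 6.31% in NP-MTAza. The groups overlapped and no comparison was called (limma, adjusted p = 0.891, 0.395 and 0.844 for F-MTAza, NP-MTAza and Aza replicate 3). At a mean of 11.0% in PBS, this flank had little room for the fall of 10 points that a call needs. The flank held a run of 7 CpGs from 4967 to 4696 bases before the start at 1.20% in pooled PBS and one of 17 CpGs from 3779 to 3377 bases before it at 9.05%. Next to the latter, 5 CpGs stood at 44.5%, 62.5% and 31.0% in PBS, at 33.3%, 31.0% and 28.9% in F-MTAza and at 32.1%, 20% and 19.1% in NP-MTAza.

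Flanks of 4 other genes could be tested, and all were more methylated in PBS than that of Pax2: Pax5 (71.6% ± 11.5), Pax3 (64.6% ± 4.28), Pax1 (42.6% ± 5.17) and Pax7 (23.7% ± 3.82 over 4 CpGs). In F-MTAza, where all 4 were called, Pax5 fell by 24.0 points, Pax3 fell by 26.6 points, Pax1 fell by 16.7 points and Pax7 fell by 11.8 points. Pax3 and Pax5 were also called in NP-MTAza. None of the 5 flanks was called in Aza replicate 3 by limma, where 1 had an unadjusted p under 0.05. Over all genes 79.0%, 81.4% and 71.0% of 3184 flanks were called lower in these comparisons. The NP-MTAza call of Pax5 was lost without PBS replicate 1 or 3 or NP-MTAza replicate 1 or 3 (limma adjusted p from 0.0538 to 0.103). The F-MTAza call of Pax7 was lost without PBS replicate 1, where the level fell by 9.93 points.

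Among the promoters, 6 could be tested, and that of Pax9 showed the clearest change. Pax9, a regulator of tooth and pharyngeal pouch development, had 83.2%, 77.8% and 89.8% in PBS, 51.4%, 53.5% and 62.6% in F-MTAza and 58.5%, 60.5% and 59.7% in NP-MTAza. The treated and PBS libraries did not overlap. Its level fell by 27.8 points in F-MTAza, by 24.0 points in NP-MTAza and by 30.4 points in Aza replicate 3 (limma, Benjamini-Hochberg adjusted p = 0.00249, 0.00363 and 0.0148). It remained well above the renal genes in every library.

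The promoter of Pax6, a regulator of eye and islet development, had 79.3%, 73.7% and 73.0% in PBS, 62.4%, 57.8% and 73.3% in F-MTAza and 67.6%, 46.1% and 40.4% in NP-MTAza. It was called in NP-MTAza (limma adjusted p = 0.0270) and not in F-MTAza (0.249). The call was lost without any 1 PBS library or NP-MTAza replicate 2 or 3, with adjusted p from 0.0525 to 0.105. The promoter of Pax1 was called in Aza replicate 3 alone, at 31.2% (25.5% to 37.4%) against 49.9% ± 1.58 in PBS (limma adjusted p = 0.0407). That call was lost without PBS replicate 1 or 3, and also without any 1 NP-MTAza library, which enter through the shared estimate of spread. Pax7 (11.2% ± 5.19 in PBS, 4.59% ± 2.43 in F-MTAza and 3.99% ± 1.68 in NP-MTAza) and Pax5 were not called. A call needs at least 10 points, so Pax2, at 0.93% in PBS, could not be called lower and Pax7 had little room. The counts of 1, 2 and 2 of 6 for F-MTAza, NP-MTAza and Aza replicate 3 stood beside 24.6%, 26.8% and 14.0% of 9782 promoters of all genes.

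In the gene body, from beyond 500 bases after the start to the gene end, 7 of 8 tested Pax genes were called lower in each of the 3 comparisons, which share the PBS libraries. Pax8 was the exception. Over all 13715 bodies tested, 85.1%, 87.0% and 79.7% were called in F-MTAza, NP-MTAza and Aza replicate 3. The median Pax difference was -21.5, -22.5 and -17.6 points, against -25.8, -27.4 and -28.5 points over all genes. Pax3 went from 50.5%, 76.9% and 51.7% in PBS to 26.4%, 28.7% and 28.1% in F-MTAza. Its difference of -32.0 points became -23.4 points without PBS replicate 2, and that of Pax9 was then -27.9 points. Pax7, a marker of muscle satellite cells, fell by 18.6 and 20.6 points in F-MTAza and NP-MTAza, while its call in Aza replicate 3 (limma adjusted p = 0.0449) was lost without PBS replicate 2, F-MTAza replicate 2 or 3 or any 1 NP-MTAza library.

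The Pax2 body had 58.0%, 61.1% and 63.2% in PBS, 39.6%, 39.9% and 36.5% in F-MTAza and 37.1%, 37.6% and 39.8% in NP-MTAza. It fell by 22.1 and 22.6 points (limma, adjusted p = 0.000106 and 8.39e-05), and Aza replicate 3 was at 43.0% (41.8% to 44.1%). The Pax8 body had 20.3%, 15.1% and 21.0% in PBS, 13.0%, 15.3% and 8.39% in F-MTAza and 15.4%, 16.8% and 10.5% in NP-MTAza. The groups overlapped and it was not called (adjusted p = 0.0621 and 0.182). Its window held much of the unmethylated stretch: 63 of its 85 shared CpGs lay within 5000 bases of the start, at 1.31% ± 1.59 in PBS, and for Pax2 91 of 286 did, at 4.76% ± 1.67.

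The body was therefore also read beyond 5000 bases after the start, an alternative chosen after seeing the data. Pax8 then had 89.4%, 91.7% and 88.8% in PBS over 22 CpGs, 41.6%, 52.1% and 38.2% in F-MTAza and 59.0%, 53.9% and 56.8% in NP-MTAza. It fell by 46.0 points in F-MTAza and by 33.4 points in NP-MTAza (limma, adjusted p = 3.70e-06 and 1.03e-05). Pax2 had 93.4%, 95.4% and 93.1% in PBS over 195 CpGs, 62.5%, 64.0% and 63.2% in F-MTAza and 60.3%, 65.1% and 64.7% in NP-MTAza, falls by 30.7 and 30.6 points (adjusted p = 3.27e-06 and 2.39e-06). In both renal genes no treated library came near the PBS range, and in both the unmethylated stretch and a highly methylated body lay in the same gene. Aza replicate 3 stood at 51.9% (46.8% to 56.8%) for Pax8 and 62.6% (61.2% to 63.9%) for Pax2.

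**Figure D4:**
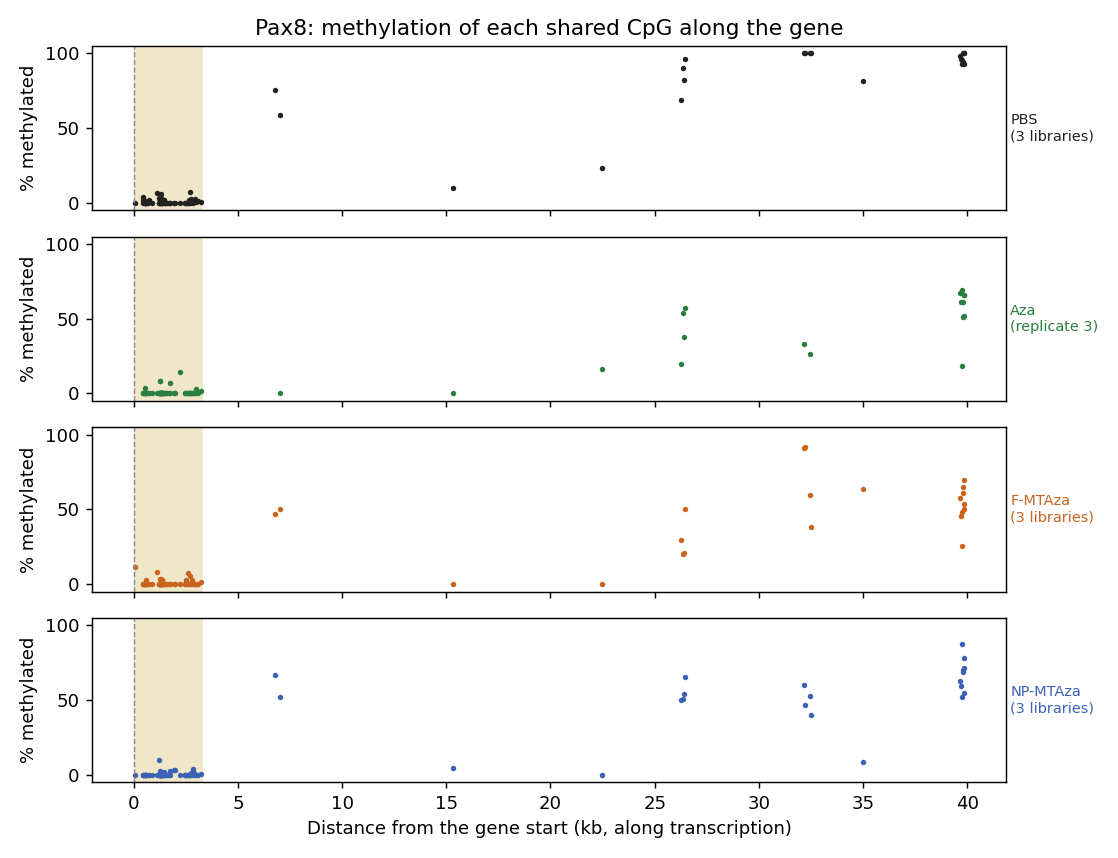
Methylation level (%) of each shared CpG of Pax8 against distance from the gene start in kb, with 1 row each for PBS, Aza replicate 3, F-MTAza and NP-MTAza and reads pooled within a group. The shaded stretch of 3234 bases is mostly near 0 in every row, no CpG is shown from 3284 to 6609 bases, and the downstream CpGs, at 90.0% over their reads in PBS with 2 of them low there as well, sit mostly lower after treatment.

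All 8 Pax genes with CpGs there were called lower beyond 5000 bases in each comparison, as were 95.1%, 96.2% and 92.3% of 10457 genes in F-MTAza, NP-MTAza and Aza replicate 3. PBS levels ranged from 44.7% ± 10.2 in Pax3 to 94.0% ± 1.25 in Pax2. Pax9 went from 90.6% ± 0.355 to 61.7% ± 7.08 in F-MTAza and 63.3% ± 3.54 in NP-MTAza. The share of the PBS level that was left ran from 47.2% to 69.3% in F-MTAza. For NP-MTAza it ran from 43.2% to 72.8%. For Pax3, the PBS level rests on 163 reads in replicate 2, at 56.4%, against 38.5% and 39.0% in the others. Pax4, whose protein acts in beta cell development, had 6 shared body CpGs and too few reads for the test, with PBS at 86.5% ± 11.7, F-MTAza at 61.0% ± 16.5 and NP-MTAza at 54.3% ± 12.

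**Figure D5:**
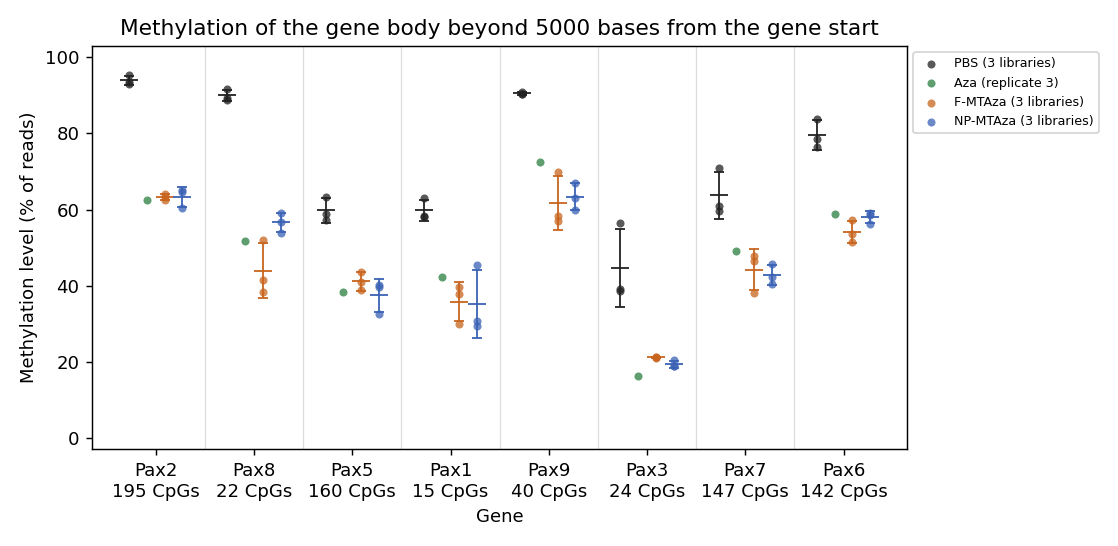
Methylation level (% of reads) beyond 5000 bases after the start, to the gene end, for 8 Pax genes. Each point is a library, and for groups of 3 the wide mark is the mean and the bars are 1 SD. In every gene the treated libraries lie below the PBS libraries, and Pax2 has the highest PBS mean at 94.0%.

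Single CpGs were tested on pooled reads by a likelihood ratio test where every library of both groups had at least 5 reads, and called at q under 0.01 and at least 35 points. In F-MTAza, 94 of 516 Pax CpGs were lower (22.0% of all CpGs tested were), in NP-MTAza 153 of 916 (25.9%) and in Aza replicate 3 190 of 1138 (24.9%). No Pax CpG was called higher by this test in these comparisons, beside 0.00449%, 0.00479% and 0.0365% of all CpGs, and 1, 5 and 9 Pax CpGs were higher at an unadjusted p under 0.05. Pooling treats reads as independent and so leaves out the spread between libraries. Only CpGs at 35% or more in PBS had room for a call. In the F-MTAza and NP-MTAza comparisons, 92 and 136 tested Pax2 CpGs were at 50% or more in PBS. Of these, 91 and 135 lay in the body and 0 in the promoter. For Pax8, 6 and 9 tested CpGs were at 50% or more in PBS. All 37, 47 and 68 called CpGs of Pax2 lay in its body, of 205, 263 and 291 tested. Pax8 had 2, 4 and 6 called, of 30, 62 and 69.

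An intron CpG of Pax2 27632 bases after the start (chr19, 44858171) was at 100% in all 3 PBS libraries, at 60.0%, 41.7% and 50.0% in F-MTAza and at 50.0%, 33.3% and 40.0% in NP-MTAza, on 5 to 16 reads a library. The Pax8 CpG 32469 bases after the start (chr2, 24298650, exon) was also at 100% in the 3 PBS libraries, on 28 to 38 reads, and at 64.3%, 68.8% and 28.6% in F-MTAza and 28.6%, 55.2% and 64.0% in NP-MTAza. In Pax9 a CpG 1638 bases before the start (chr12, 57791116) went from 92.9%, 71.4% and 92.6% in PBS to 28.6%, 22.2% and 20% in F-MTAza and 54.2%, 27.3% and 56.2% in NP-MTAza. These CpGs were picked for the size of their difference among those called in both combination groups without overlap with PBS, so their values describe the strongest cases.

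The micelle and the free form of the same drugs were compared directly. Of 23 Pax windows tested by limma, 0 were called and 0 had an unadjusted p under 0.05, with differences of NP-MTAza minus F-MTAza from -20.8 to 7.15 points. No window was called among the 9782 promoters or 13715 bodies of all genes either. Beyond 5000 bases in Pax8, NP-MTAza lay 12.6 points above F-MTAza without overlap of the libraries, which did not pass the test (limma unadjusted p = 0.0103, adjusted p = 0.620). It was the 1 Pax body of 8 with an unadjusted p under 0.05 in that window. Among 666 Pax CpGs, 0 were called lower and 1 higher by the likelihood ratio test, beside 0.0204% and 0.0106% of all CpGs tested. It lies in an exon of Pax6, 7746 bases after the start (chr2, 105516799), and was at 28.6%, 18.2% and 6.25% in F-MTAza and at 50.0%, 60.0% and 71.0% in NP-MTAza. PBS stood at 64.7%, 57.1% and 41.2% there. Several of these values rest on 5 to 7 reads.

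Other genes of the Pax network and cell markers were read from fixed lists. Among kidney partners and targets of Pax proteins, 7 of 20 tested promoters were under 20% in PBS. Examples were Paxip1 (1.64%), which binds Pax2, the co-repressor Tle4 (11.0%), and the kidney regulators Foxc1 (1.11%) and Emx2 (1.75%). The share over all 9782 promoters was 54.5%. None of 8 promoters of partners in other tissues was under 20%, nor any of 9 promoters of proximal tubule markers or of 11 promoters of markers of other cell types. The labelled cell type was therefore not apparent from promoter methylation of its markers, such as Hnf4a at 84.7% and Slc22a8 at 88.3%. These libraries hold no expression values, and the study's own qRT-PCR, which included Pax2, was not used.

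After treatment, bodies of the kidney partners were called lower in 20, 20 and 17 of 25 gene models (F-MTAza, NP-MTAza and Aza replicate 3), with a median difference of -23.0, -24.2 and -25.1 points. Over all bodies tested, 85.1%, 87.0% and 79.7% were called lower, with medians of -25.8, -27.4 and -28.5 points. The counts corresponding to these were 15, 16 and 12 of 18 for partners in other tissues, 13, 13 and 13 of 13 for proximal tubule markers and 16, 17 and 15 of 18 for markers of other cell types. None was called higher by limma. The largest changes included the promoter of Fgfr1, a growth factor receptor, from 85.9% to 36.1% in F-MTAza, the Paxip1 body, from 94.8% to 47.5% in NP-MTAza, and the body of Blnk, a B cell adaptor, from 95.3% to 60.2% in F-MTAza (limma adjusted p = 0.000487, 9.61e-06 and 1.33e-05). The annotation repeats the symbol Fgfr1 across gene models, and which model this promoter of 7 CpGs belongs to is not given here.

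By promoter, body and flank levels in the 10 libraries together (30 values), the genes most like Pax2 of 1617 with all 3 windows were Gtpbp6, Mrpl49 and Dclre1c, at root mean square differences of 5.71, 6.0 and 6.10 points. Pax8 lacked a tested promoter and flank, so no such match could be made for it.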

How the data were processed

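The members and gene lists were chosen with earlier results of these data known. RRBS libraries had been made from 3 samples per group. According to the labels and the study's methods, reads were trimmed with Trim Galore 0.4.4 and aligned to mm9 with Bismark 0.20.1 and Bowtie2, both strands of a CpG were merged, and CpGs with at least 5 reads were kept. The deposited files give methylated and total reads per CpG, from which every level was computed, and a percent that the authors rounded down to a whole number, which was not used. RRBS reads CpGs near CCGG sites, so other CpGs were not measured. Libraries used held 25336747 to 65817118 reads at listed CpGs, counted at each CpG, with a median of 7 to 9 reads per CpG.

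Windows needed at least 3 shared CpGs and 20 reads in each of 10 libraries and were tested on arcsine square root levels of all genes with limma 3.58.1 in R 4.3.3 (group only, 1 fit that pools the spread, Benjamini-Hochberg adjustment). CpGs were tested in Python 3.11.15 with scipy 1.17.1 by a likelihood ratio test after the study's cutoffs. Scripts were tested on simulated data. Named CpGs were at most 2 per gene, those with the largest difference among CpGs called in both combination groups without overlap with PBS, and named list genes at most 2 per list by the same measure among those called. Gene windows and coordinates are from GENCODE M1 on mm9. Aza replicates 1 and 2 and NP-MTAza replicates 1 and 2 are labelled as sequenced with 2 barcode sets. Alternatives changed depth, CpG sets, weights, scale, windows, libraries and tests.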

Additional observations from a re-analysis of the deposited data

Results flagged for a closer look

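Aza replicates 1 and 2, which enter no comparison, had higher levels at the starts of the renal genes than the other 10 libraries. Within 1000 bases of the Pax2 start, over every CpG listed, Aza replicate 1 was at 29.4% of 197 reads and replicate 2 at 64.4% of 73 reads, against 1.44% ± 1.36 in PBS. For Pax8 they were at 51.9% of 54 reads and 59.4% of 32 reads, against 1.46% ± 1.28 in PBS. Aza replicate 3 was at 0.369% and 0.263% there. The difference was not limited to the renal genes: the Pax7 start was at 68.2% of 996 reads in Aza replicate 1 against 27.2% in PBS, while the starts of Pax3, Pax5, Pax6 and Pax9 were below the PBS mean in both libraries. The files of these 2 libraries also list 35321 and 34667 CpGs more than once, and their part in these levels was not tested.

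The 2 forms of the drug combination differed at the Pax6 CpG 7746 bases after the start, where NP-MTAza was 52.0 points above F-MTAza (q = 0.00588, likelihood ratio test on pooled reads, higher in 3 of 3 libraries). The call was lost without NP-MTAza replicate 3 or F-MTAza replicate 2 or 3.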

How the results depend on the processing

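Of 1167 recomputed window differences, 1074 kept their direction and side of the threshold, 58 lost and 26 gained a call and 9 reversed. Of 387 recomputed counts and lengths, 327 stayed within their limits. The cause was not tested for any change that follows, except that fewer CpGs or libraries entered where the setting says so.

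With all 12 libraries, fewer windows could be tested: 0 of 3 promoters and 0 of 1 shore were called in F-MTAza and NP-MTAza, 1 of 3 flanks in each comparison, 1 of 1 shore in Aza, and 31 of 86 Aza CpGs lower and 1 higher. At a minimum of 10 reads, calls were 4 of 8 Aza bodies, 2, 1 and 1 of 3 flanks (F-MTAza, NP-MTAza, Aza), 2 of 2 shores in each comparison, 22 of 138, 31 of 259 and 81 of 459 CpGs lower, and 0 of 210 higher in NP-MTAza against F-MTAza. With promoters from 1000 bases before to 1000 after the start, 2, 1 and 1 were called. With every listed CpG, 5 promoters were called in NP-MTAza and 2 flanks in Aza; with CpGs read in all 10 libraries, 1 promoter and 1 shore in Aza; on the percent scale, 1 flank in Aza. A difference of 25 points gave 173 and 284 CpGs lower in F-MTAza and NP-MTAza. With overdispersion, an F test called 0 CpGs in any comparison (168, 283 and 76 had an unadjusted p under 0.05 in F-MTAza, NP-MTAza and Aza). That test called nothing in simulated data with known changes either. The simulation covered NP-MTAza against PBS only and changed a smaller share of CpGs than was called lower here. It therefore does not settle how to read the 0 calls. A chi-square test, chosen after seeing the data, called 78, 119 and 142 lower and 0 higher in NP-MTAza against F-MTAza.

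Leaving out single libraries gave 7 to 7, 7 to 8 and 6 to 7 bodies, 1 to 2 promoters in NP-MTAza and Aza, 3 to 4, 1 to 2 and 0 to 1 flanks, 3 to 4 and 2 to 4 shores in NP-MTAza and Aza, 92 to 127, 149 to 209 and 175 to 248 CpGs lower, and 0 to 1 CpG higher in NP-MTAza against F-MTAza. The Pax2 stretch was 5939 bases in PBS replicate 2 alone, the Pax8 stretch 2857 bases at 10 reads and 3559 in PBS replicate 3 alone, and the Pax7 stretch 640 bases with limits of 10% and 30%, 1372 in PBS replicate 1 and 468 in PBS replicate 2 alone.

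Reversed differences were all of windows not called: Pax2 promoter in Aza, 33.7 points with 12 libraries; Pax2 flank in Aza, -0.203 with every CpG, -1.37 with equal weights and -0.94 to 2.34 with single libraries left out (lowest without PBS replicate 2); Pax2 flank in F-MTAza, 0.175 with CpGs in all libraries and -2.41 to 0.87 with single libraries left out (highest without PBS replicate 1); Pax5 promoter in F-MTAza, -15.3 to 12.4 with single libraries left out, above 0 without PBS replicate 2 or F-MTAza replicate 2; and Pax8 body in Aza, 23.1 with 12 libraries.

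Samples with the same replicate number did not deviate together over gene bodies (correlations from -0.0662 to 0.018). Each deviation was taken from a mean of 3 libraries, so this check cannot exclude that equal numbers were paired. With a replicate block, 4 of 69 window results lost their call, all in Aza replicate 3 (the Pax1 promoter, the Pax7 body and the Pax5 and Pax6 shores). No other window result changed its side of the threshold.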
